A study of Mus musculus with 39 samples.

Results

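The comparison described here set AE9a leukaemias with added miR-126 (titled AE9a+miR-126-P2) against AE9a leukaemias grown from miR-126 knockout cells (titled miR-126KO+AE9a-P2), both at passage 2 through recipient mice. Its members were chosen by these titles and number 6 of the 39 arrays of the series, 3 in each group, and it was read over all 22180 genes that the platform annotation names. Each of these 6 arrays holds total RNA from 1 recipient mouse. Marrow was taken when the mice reached end stage, and the transplanted cells were separated from host cells by flow cytometry for CD45.1. Both groups carry AE9a, a truncated form of the AML1-ETO (RUNX1-RUNX1T1) fusion protein, so the knockout differs from the other leukaemias in the donor's miR-126 gene and the added group in extra miR-126. AE9a leukaemias at passage 2 without a change of miR-126 (3 arrays) are given beside both groups where they help to place a level. The sources used here do not say which vector and promoter carried the added miR-126, what the knockout allele is, which strains were used or which donor leukaemia seeded which recipient. The p-values therefore measure the spread between recipient mice. Except where stated, this spread was pooled over the groups of all 39 arrays. It can be smaller than the spread within the groups compared here.

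MicroRNAs are short RNAs that pair through a seed near their 5′ end with messenger RNAs and lower the stability or translation of these targets. miR-126 is made from an intron of Egfl7, a gene of endothelial cells, and is also found in haematopoietic stem and progenitor cells, where it is known for restraining cell cycle entry. It is high in acute myeloid leukaemias with the t(8;21) translocation, which gives rise to AML1-ETO, a fusion that blocks the maturation of myeloid cells.

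The mature form of the molecule that differs between the groups is shown with its seed, bases 2 to 8, in capitals, as RefSeq gives it for GRCm38.p6 at chr2:26591402-26591423 on the plus strand.
mmu-miR-126a-3p: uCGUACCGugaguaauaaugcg

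The array has no probe set for this mature RNA alone. The probe set that the annotation assigns to Mir126a together with Egfl7 served as the check of the labels. It read 7.98, 9.01 and 11.56 with added miR-126, against 2.94, 2.77 and 2.91 in the knockout, on the deposited log2 scale, on which 1 unit means a 2-fold difference. The groups did not overlap, and the 3 mice with added miR-126 differed among themselves by more than 3 units. The difference was 6.64, with a limma adjusted p of 1.88e-09 over all probe sets and of 0.0527 when the 6 arrays were fitted alone. AE9a leukaemias of passage 2, with an unchanged miR-126 gene, read 2.85 to 2.90, the same low level as the knockout, so this probe set shows the addition and cannot show the knockout. Egfl7 has a probe set of its own that stayed at 6.01 ± 0.21 with added miR-126, against 6.47 ± 0.39 in the knockout (SD, n = 3 each), a difference of -0.46 with an adjusted p of 0.249.

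**Figure D1:**
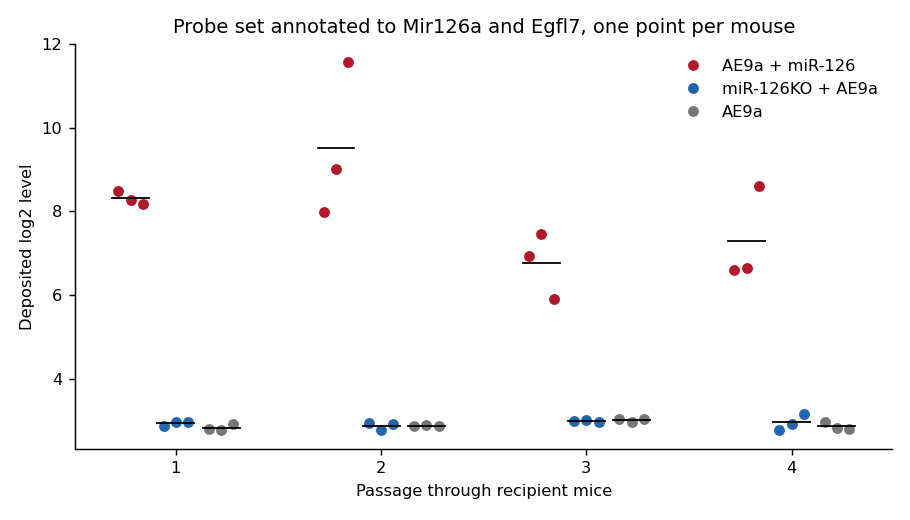
Deposited log2 level of the probe set annotated to Mir126a and Egfl7 in every mouse, by passage and arm, with the mean of each group as a line. At passage 2 the mice with added miR-126 lie at 7.98, 9.01 and 11.56, and the knockout and AE9a mice all lie below 3.

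Some facts of the arrays touch all results below. Taken over all probe sets, the log2 values had an SD of 1.66, 1.78 and 1.93 on the arrays with added miR-126, against 1.96, 1.85 and 1.78 on the knockout arrays, so that 3 of the 8 narrow arrays of the series (an SD under 1.8) stand in this comparison, on both sides of it. The alternative without the narrow arrays dropped all 8 of them, of which the other 5 were arrays with added miR-126 of passages 3 and 4. It leaves 1 array with added miR-126, whose spread is then assumed to be that of the other groups, against 2 knockout arrays. Pairwise correlations ran from 0.925 to 0.973 with added miR-126 and from 0.936 to 0.962 in the knockout, below the 0.982 to 0.987 of AE9a at passage 2. Ptprc, which encodes the CD45 protein used in the sort, lay at 10.46, 10.76 and 11.18 with added miR-126 and at 11.35, 10.81 and 9.59 in the knockout, high on all 6 arrays.

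With added miR-126, 252 of the 22180 genes were higher (1.14%) and 496 were lower (2.24%) than in the knockout, at an adjusted p under 0.05 in a limma fit of all 39 arrays. These 748 genes are 3.37% of those tested, and the groups did not overlap for 684 of them, a property that 17.3% of all genes had. Differences of at least 2-fold made up 122 of the rises and 407 of the falls, together 2.39% of all genes, and those of at least 8-fold 7 and 31. The median difference over all genes was 0.03. Fitted alone, the 6 arrays left 2 genes higher and 35 lower. Without the 8 narrow arrays 440 genes were higher and 312 lower, of which 77 and 174 were among the genes called with all arrays, so the excess of falls does not hold without them.

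**Figure D2:**
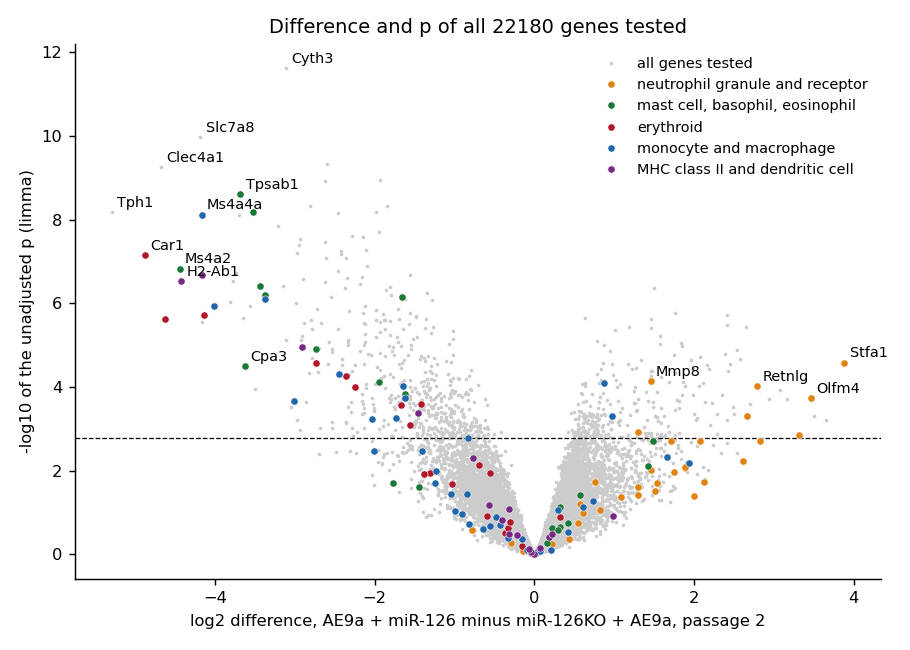
Log2 difference (AE9a + miR-126 minus miR-126KO + AE9a, passage 2) against -log10 of the unadjusted limma p for the 22180 genes, with the members of 5 gene lists in colour; genes above the dashed line passed after adjustment. The largest differences are falls, from Tph1 at -5.29, with mast cell, erythroid, macrophage and MHC class II genes among them, and the rises reach 3.88 for Stfa1.

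Of the 12 largest falls, Car1, Car2 and Rhag were on the list of erythroid genes, Ms4a4a and C1qb on that of macrophage genes, H2-Ab1 and H2-Aa on that of class II genes and Ms4a2 on that of mast cell genes, while Tph1, Clec4a1, Slc7a8 and Saa3 were on none. The files give no detection calls, so for genes near or below the median level over all genes (5.56), as most of these were with added miR-126, a difference may be a lower bound and the order of the falls is not settled. Tph1, which encodes the tryptophan hydroxylase that starts serotonin synthesis in mast cells and gut cells, read 5.30, 5.14 and 4.87 with added miR-126, against 10.33, 9.51 and 11.34 in the knockout. Its difference was -5.29 ± 0.67 (SE), adjusted p 1.15e-05, and the groups lay more than 4 units apart. Clec4a1, a C-type lectin receptor of myeloid cells, read 5.16, 4.75 and 4.56 with added miR-126 and 10.05, 9.98 and 8.48 in the knockout (-4.68 ± 0.53, adjusted p 3.15e-06). Slc7a8, a neutral amino acid transporter, stood at 7.30, 6.87 and 7.21 with added miR-126 and at 11.18, 10.81 and 11.93 in the knockout (-4.18 ± 0.44, adjusted p 1.21e-06). No overlap between the groups was a condition for the 12 falls and the 12 rises named, so the separation of their mice is not a result. Saa3, an acute phase apolipoprotein, read 6.20, 5.83 and 5.99 with added miR-126 against 9.37, 11.75 and 9.39 in the knockout, a fall of 4.16 that did not pass with the 6 arrays alone. Of the 12 falls, 8 kept their call in all 17 alternative fits: Tph1, Car1, Clec4a1, Ms4a2, H2-Ab1, Slc7a8, Ms4a4a and H2-Aa.

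**Figure D3:**
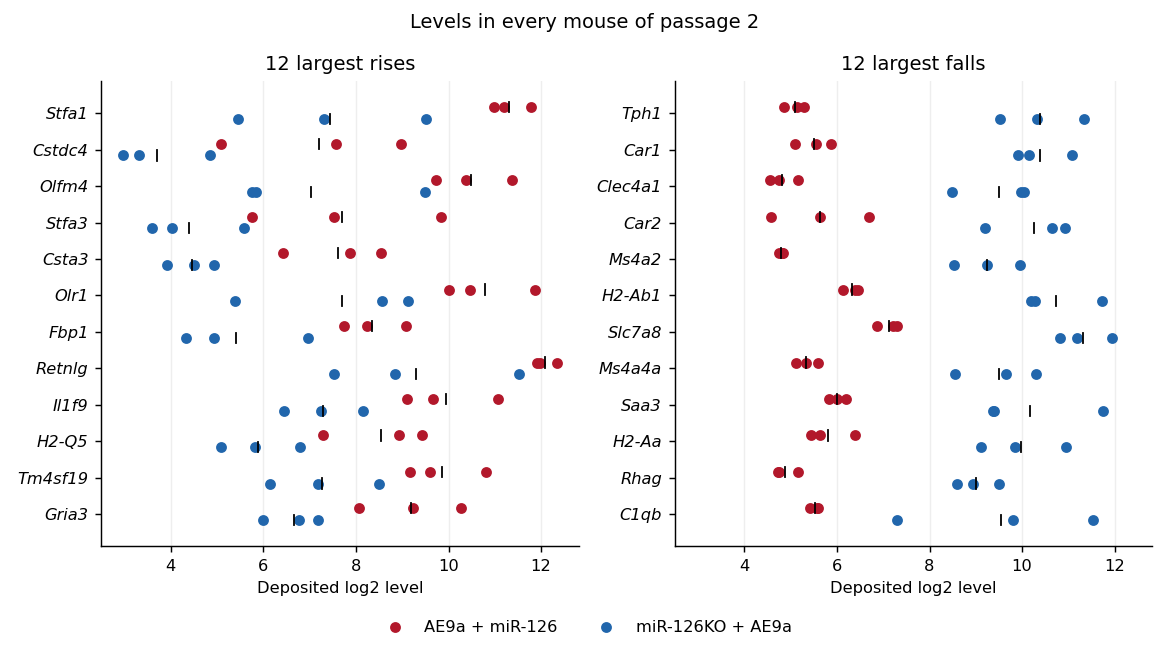
Deposited log2 level of the 12 largest rises and the 12 largest falls in every mouse of passage 2, with AE9a + miR-126 drawn above miR-126KO + AE9a for each gene and group means as ticks. For the falls the mice with added miR-126 lie close together at low levels, and for several rises 1 knockout mouse (replicate 2, at 11.52 for Retnlg and 9.49 for Olfm4) lies close to the mice with added miR-126.

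The rises were smaller and less even. Stfa1, which encodes a stefin that inhibits cathepsins and is abundant in neutrophils, read 10.97, 11.19 and 11.77 with added miR-126, against 7.32, 9.52 and 5.44 in the knockout, a difference of 3.88 ± 0.79 (adjusted p 0.00343). The stefins Stfa3 (3.31), Csta3 (3.17) and the related Cstdc4 (3.50) rose with it, and because these are near-identical copies, their signals are uncertain as separate measurements. Fbp1, the gluconeogenic fructose bisphosphatase, read 8.23, 7.75 and 9.08 with added miR-126 and 4.33, 6.97 and 4.93 in the knockout (2.94 ± 0.70, adjusted p 0.0134). Olr1, a scavenger receptor for oxidised lipoprotein, rose by 3.08, and Tm4sf19, a tetraspan membrane protein, by 2.58. Gria3, a glutamate receptor subunit, read 9.23, 10.28 and 8.08 with added miR-126 against 6.0, 7.19 and 6.77 in the knockout. H2-Q5, a class I antigen presenting gene, read 8.93, 9.43 and 7.29 with added miR-126 and 6.78, 5.81 and 5.08 in the knockout. A second probe set of H2-Q5 differed by 1.20 and did not pass. All 12 rises lost their call when the 6 arrays were fitted alone and 7 lost it without the 8 narrow arrays, whereas 3 and 1 of the 12 falls did. Without the narrow arrays H2-Q5, Tm4sf19 and Gria3 differed by 0.99, 1.32 and 1.48. Cstdc4 and Stfa3 did not pass without replicate 2 or 3 of the added group or without knockout replicate 1 or 3, with differences down to 2.62 and 2.25. Csta3 did not pass without replicate 2 of the added group or knockout replicate 1, Olr1 without knockout replicate 3 (1.93) and Fbp1 without knockout replicate 1 or 3.

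On the list of genes of mast cells, basophils and eosinophils, 10 of the 21 measured members fell and 0 rose. Over all genes 2.24% fell and 1.14% rose. The median difference of the list was -1.62, beside 0.03 over all genes. With all arrays this was the lowest median of the 28 gene lists, but without the narrow arrays it was -0.50, above the macrophage (-1.05), erythroid (-0.77) and class II (-0.74) lists. A positive difference was seen in 9 of the 21 members, up to 1.49. As higher, 2 members passed with the array SD as a covariate or after quantile normalization, and 4 with array weights. After cyclic loess, with dim genes left out or without replicate 1 of the added group, 1 member did. In bulk RNA, fewer cells of a type and less RNA per cell cannot be told apart. The mean level over the list was 5.34, 5.38 and 5.72 with added miR-126 and 6.66, 6.41 and 7.36 in the knockout, without overlap. AE9a leukaemias of passage 2 lay at 5.66, 5.78 and 6.07, below every knockout mouse.

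Receptors and granule enzymes of mast cells led this group. Ms4a2, the beta chain of the high-affinity IgE receptor, read 4.76, 4.84 and 4.80 with added miR-126, against 9.25, 8.52 and 9.95 in the knockout (-4.44 ± 0.65, adjusted p 0.000108). Fcer1a, the alpha chain that binds IgE, stood at 4.58, 4.91 and 5.13 with added miR-126 and at 8.43, 7.83 and 8.65 in the knockout (-3.43 ± 0.53, adjusted p 0.000195). Lack of overlap was a condition for Ms4a2, as 1 of the 12 largest falls, and not for Fcer1a, whose groups did not overlap either. The tryptase Tpsab1 read 4.56, 4.19 and 4.21 with added miR-126 and 8.32, 7.55 and 8.15 in the knockout (-3.68 ± 0.44, adjusted p 7.94e-06), and its neighbour Tpsb2, similar enough in sequence to share signal, fell by 3.52. The chymase Cma1 fell by 3.37, and the carboxypeptidase Cpa3 read 8.60, 8.10 and 8.88 with added miR-126 and 11.57, 12.14 and 12.74 in the knockout (-3.62 ± 0.74). Kit, the receptor of stem cell factor on which mast cells depend, fell by 1.95, and the transcription factors Gata2 and Mitf fell by 2.73 and 1.66. Cd200r3, an activating receptor of basophils and mast cells, fell by 1.62. Fcer1a, Cpa3 and Gata2 did not pass without the narrow arrays, nor Gata2 with the 6 arrays alone. Of the eosinophil granule genes Epx, Prg2, Prg3 and Ear6, 0 passed, with differences of 0.23 to 0.57, and Mcpt8, the basophil protease, was 1.42 higher with an adjusted p of 0.115. Kit did not pass without replicate 1 of the added group or knockout replicate 3, nor Cd200r3 without replicate 1 or 2 of the added group or knockout replicate 3, and without the narrow arrays they differed by -0.74 and -0.82. Tpsab1, Tpsb2 and Ms4a2 passed in all alternatives that gave a value, whereas the list had 5 falls in place of 10 with the 6 arrays alone, without the narrow arrays and with dim genes left out.

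The promoters of Cpa3 and Ms4a2 were taken from the 4 fallen list members found to hold the letters AGATAA, which the Gata2 protein binds. Gata2 fell too, and whether its fall bears on theirs was not tested. Each stretch is the 160 bases before the annotated start (RefSeq, GRCm38.p6), at chr3:20242182-20242341 and chr19:11623720-11623879, both on the minus strand, with AGATAA or its reverse complement TTATCT in capitals.
Cpa3: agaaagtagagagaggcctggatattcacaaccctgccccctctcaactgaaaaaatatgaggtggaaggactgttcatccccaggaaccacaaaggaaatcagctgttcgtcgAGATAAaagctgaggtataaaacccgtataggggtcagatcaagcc
Ms4a2: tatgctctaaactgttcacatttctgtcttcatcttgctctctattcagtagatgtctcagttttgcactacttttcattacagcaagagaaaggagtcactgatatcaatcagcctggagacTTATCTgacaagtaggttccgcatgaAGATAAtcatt
In a search of the 250 bases before the start on both strands, 7 of the 18 list members with a promoter sequence held the motif (38.9%), against 11.4% of 27025 genes. Among the 8 members that fell and had a promoter sequence, 4 held it. A match is a run of letters and does not show that a factor binds there.

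Genes of the red cell line were the next group. Of 21 measured erythroid genes 9 fell and 0 rose, beside 2.24% and 1.14% of all genes. Their median difference was -1.30, and it was -0.77 without the narrow arrays and -0.87 to -1.62 with 1 array left out. The mean level over the list was 5.67, 5.50 and 5.53 with added miR-126, against 7.21, 6.53 and 7.54 in the knockout, and the groups did not overlap. Car1, a carbonic anhydrase of early red cell precursors, read 5.88, 5.54 and 5.10 with added miR-126 and 11.08, 9.91 and 10.16 in the knockout (-4.88 ± 0.69, adjusted p 5.75e-05). Car2, another carbonic anhydrase, fell by 4.62. Rhag, a glycoprotein of the Rh complex in the red cell membrane, read 5.17, 4.74 and 4.72 with added miR-126 and 8.95, 8.59 and 9.50 in the knockout, a fall of 4.13. Car1, Car2 and Rhag are among the largest falls named above, for which no overlap between the groups was a condition, so the separation of their mice is not a result. The blood group proteins Ermap and Kel fell by 2.74 and 2.36, the membrane skeleton genes Sptb and Ank1 by 2.25 and 1.67, and the transcription factors Gfi1b and Klf1 by 1.56 and 1.42, although a second probe set of Ank1 was 0.36 higher and did not pass. Without knockout replicate 3 Sptb, Ank1, Gfi1b and Klf1 differed by -1.71, -1.18, -1.43 and -1.16 and did not pass. Replicate 2 of the added group decided the calls of Ank1, Gfi1b and Klf1 in the same way, its replicate 1 those of Ank1 and Gfi1b, and knockout replicate 1 those of Gfi1b and Klf1. Genes of later red cells such as Slc4a1, the anion exchanger, stood low in both groups (means of 5.66 with added miR-126, against 5.99 in the knockout) and did not pass.

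Of 9 enzymes and carriers of heme synthesis, Fech, Alad and Urod fell by 1.52, 1.43 and 1.21. Over all genes 2.24% fell and 1.14% rose. Alas1, the housekeeping form of the first enzyme of the pathway, went the other way and read 9.45, 9.36 and 10.16 with added miR-126 against 7.96, 8.73 and 6.99 in the knockout (1.77 ± 0.37, adjusted p 0.0052), with 1.31 and no call without knockout replicate 3. The erythroid falls numbered 2 without the narrow arrays, 2 with the 6 arrays alone, 5 without knockout replicate 3 and 6 without replicate 2 of the added group. The heme falls numbered 0 without the narrow arrays, without replicate 1 of the added group or without knockout replicate 1, and 1 with the 6 arrays alone, without replicate 2 of the added group or without knockout replicate 3.

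Several macrophage genes fell with added miR-126, and a pair of genes shared with immature myeloid cells rose. Of 37 measured monocyte and macrophage genes 10 fell and 2 rose, beside 2.24% and 1.14% of all genes, with a median difference of -0.81. The mean over the list was 7.32, 7.25 and 7.34 with added miR-126 and 8.48, 8.46 and 7.42 in the knockout, so knockout replicate 3 lay within 0.1 of the other group. Ms4a4a, a membrane protein of macrophages, read 5.32, 5.11 and 5.59 with added miR-126, against 9.65, 10.31 and 8.56 in the knockout (-4.17 ± 0.53, adjusted p 1.15e-05). Vcan, the proteoglycan versican of classical monocytes, stood at 5.36, 5.23 and 5.21 with added miR-126 and at 7.98, 9.86 and 8.07 in the knockout (-3.37 ± 0.54). Both were low in all mice with added miR-126, and lack of overlap was a condition for naming Ms4a4a and not for Vcan. The complement gene C1qb read 5.56, 5.60 and 5.42 with added miR-126 and 11.53, 9.80 and 7.30 in the knockout, a fall of 4.02 in which the knockout mice spread over 4 units, and C1qc and C1qa fell by 2.44 and by 0.83 with the knockout mice in the same order. The groups overlapped for C1qa, at 6.06 to 6.27 with added miR-126 and 6.12 to 7.92 in the knockout. C1qa did not pass in 10 of 17 alternatives, among them those without any 1 mouse but knockout replicate 3, and without knockout replicate 1 it differed by -0.38 and C1qc by -1.66.

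The Fc receptors for IgG did not move together. Fcgr1 and Fcgr4, both activating receptors, fell by 1.74 and 3.01, but Fcgr4 read 5.71, 5.72 and 8.01 with added miR-126 and 11.78, 10.07 and 6.64 in the knockout, so its groups overlapped. Fcgr3, a low-affinity activating receptor, rose by 0.98. Ly6c2, a surface protein of inflammatory monocytes and immature myeloid cells, read 12.27, 12.33 and 11.86 with added miR-126 and 10.91, 11.80 and 11.14 in the knockout (0.87 ± 0.19, adjusted p 0.00742). The chemokine receptor Ccr2, the mannose receptor Mrc1 and Ms4a7 fell by 1.64, 1.61 and 2.03. Csf1r, the receptor of macrophage colony stimulating factor, read 8.15, 8.38 and 7.95 with added miR-126 against 9.89, 9.93 and 8.33 in the knockout, with an adjusted p of 0.132. Several of these calls rest on single mice. Fcgr4 did not pass without replicate 1 or 2 of either group (-1.87 without knockout replicate 1), Fcgr1 without replicate 1 or 2 of the added group or knockout replicate 1, and Ms4a7 without any 1 mouse but knockout replicate 3. Fcgr3 did not pass without replicate 3 of either group, Ly6c2 without knockout replicate 1, Ccr2 without knockout replicate 2, and Mrc1 without knockout replicate 2 or replicate 3 of the added group. Without knockout replicate 1 the number of falls on the list was 5, likewise without knockout replicate 2, 6 without either replicate 1 or replicate 2 of the added group, and 12 without the narrow arrays. With the 6 arrays alone it was 1.

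Of 19 measured class II and dendritic cell genes 4 fell and 0 rose, beside 2.24% and 1.14% of all genes. All 4 were class II genes. H2-Ab1, the beta chain of the I-A molecule, read 6.45, 6.39 and 6.12 with added miR-126, against 10.20, 11.72 and 10.29 in the knockout (-4.42 ± 0.68, adjusted p 0.000166). H2-Aa, its alpha chain, read 5.62, 6.39 and 5.43 with added miR-126 and 9.85, 10.96 and 9.11 in the knockout (-4.16 ± 0.62, adjusted p 0.000134). Both chains are among the 12 largest falls, for which no overlap between the groups was a condition. H2-Eb1, the beta chain of I-E, and H2-DMa, which helps to load peptides, fell by 2.91 and 1.45, and H2-DMa did not pass without replicate 2 of the added group or knockout replicate 1 or 2 (-1.09). Ciita, the transactivator of class II genes, differed by -0.31 and did not pass. The dendritic cell genes of the list, such as Xcr1 (-0.04), Zbtb46 (-0.06), Batf3 (-0.32) and Siglech (-0.57), did not pass either, and the median over the list was -0.22, or -0.74 without the narrow arrays. Of B cells, which also present on class II, 0 of 19 genes passed, with a median of 0.12 and list means of 5.04 to 5.27 with added miR-126 and 5.01 to 5.14 in the knockout.

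The promoters of H2-Aa and H2-Eb1 are shown because class II genes are known for a shared Y box, a CCAAT element close to the start. The stretches are the 160 bases before the annotated start (RefSeq, GRCm38.p6), at chr17:34287824-34287983 on the minus strand and chr17:34305707-34305866 on the plus strand, with the letters CTGATTGG in capitals.
H2-Aa: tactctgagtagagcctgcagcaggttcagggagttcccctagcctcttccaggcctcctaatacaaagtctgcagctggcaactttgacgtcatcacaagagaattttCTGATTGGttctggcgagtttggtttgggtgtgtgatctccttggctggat
H2-Eb1: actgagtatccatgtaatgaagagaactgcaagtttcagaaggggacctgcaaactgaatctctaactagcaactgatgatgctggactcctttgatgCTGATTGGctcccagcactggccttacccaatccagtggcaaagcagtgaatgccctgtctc
Searched as CTGATTGG or its reverse complement CCAATCAG in the 250 bases before the start, it was found in 4 of 15 list members with a promoter sequence (H2-Aa, H2-Eb1, H2-Eb2 and H2-Oa), against 4.43% of 27025 genes. H2-Eb2 and H2-Oa hold the letters and did not pass.

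Neutrophil granule and receptor genes had more rises than the other lists. Of 32 measured members 7 rose and 0 fell, beside 1.14% and 2.24% of all genes. A positive difference was seen in 29, and the median was 1.49. The mean over the list was 9.22, 9.25 and 10.96 with added miR-126 and 7.95, 9.66 and 7.25 in the knockout, so knockout replicate 2 lay above 2 of the mice with added miR-126. Retnlg, a secreted resistin-like protein of neutrophils, read 11.99, 11.91 and 12.35 with added miR-126, against 8.84, 11.52 and 7.53 in the knockout (2.79 ± 0.62, adjusted p 0.00834). Olfm4, a glycoprotein of specific granules, read 9.72, 10.38 and 11.36 with added miR-126 and 5.84, 9.49 and 5.75 in the knockout (3.46 ± 0.81, adjusted p 0.0129). In both, 2 knockout mice were far below and the other one was near the mice with added miR-126. Mmp8, the neutrophil collagenase, read 11.31, 11.56 and 12.13 with added miR-126 and 9.77, 11.04 and 9.81 in the knockout (1.46 ± 0.32, adjusted p 0.007). Il1f9, an interleukin 1 family cytokine, and Anxa1, an annexin that dampens inflammation, rose by 2.67 and 1.30. Without knockout replicate 3 Retnlg, Olfm4, Mmp8, Il1f9 and Anxa1 differed by 1.91, 2.83, 1.26, 2.25 and 0.86 and did not pass. Olfm4, Il1f9 and Anxa1 also did not pass without knockout replicate 1, nor Il1f9 and Anxa1 without replicate 1 or 3 of the added group. Retnlg, Olfm4 and Anxa1 lost their calls with array weights too.

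Members with large differences that did not pass show the same unevenness. Mmp9, the gelatinase of tertiary granules, read 9.59, 9.31 and 11.49 with added miR-126 and 6.92, 10.07 and 5.53 in the knockout, a difference of 2.62 with an adjusted p of 0.099. Cxcr2, the receptor for neutrophil attracting chemokines, differed by 2.07 (adjusted p 0.0542), Camp, the cathelicidin of specific granules, by 2.12 and Ltf, lactoferrin, by 1.89. Without knockout replicate 2, 18 of the 32 genes rose, and without knockout replicate 3, 1 did. Leaving out knockout replicate 1 left 3, leaving out replicate 3 of the added group left 4, and the 6 arrays alone left 0. With array weights 4 members rose and 3 fell. Of 15 primary granule genes, which mark promyelocytes, 1 rose: Ctsg, cathepsin G, read 12.08, 12.06 and 10.99 with added miR-126 and 8.17, 11.26 and 8.85 in the knockout (2.28 ± 0.58, adjusted p 0.0222). Ctsg did not pass without replicate 1 or 2 of the added group, without knockout replicate 1 (1.65) or 3, without the narrow arrays or with the 6 arrays alone. Over all genes 1.14% rose. The median of these 15 was 0.44, and Mpo, the myeloperoxidase, differed by 1.41 without passing.

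**Figure D4:**
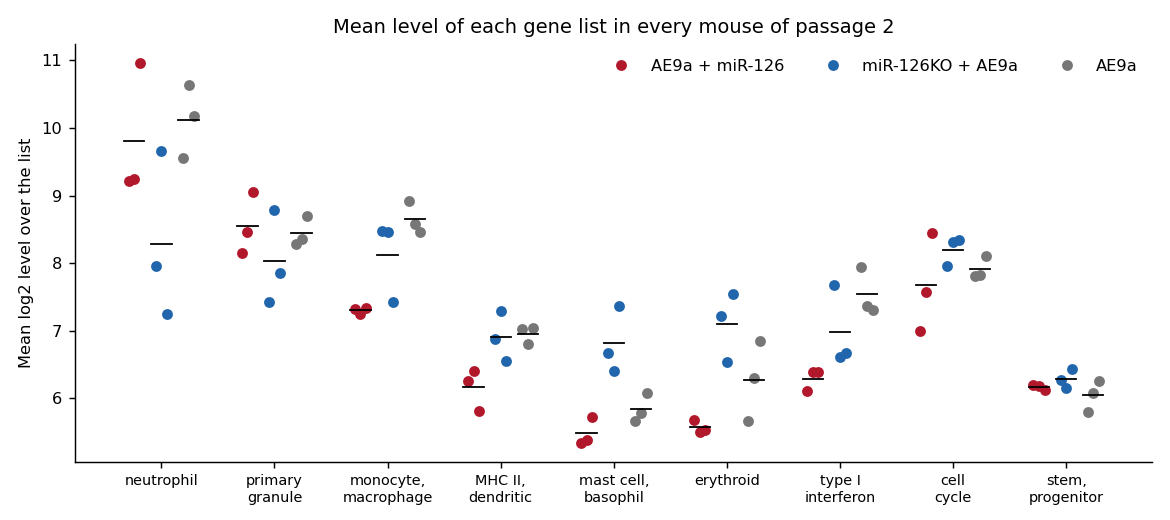
Mean log2 level over the members of 9 gene lists in every mouse of passage 2, with AE9a + miR-126 left, miR-126KO + AE9a in the middle and AE9a right for each list, and group means as lines. The mast cell list at 5.34 to 5.72 and the erythroid list at 5.50 to 5.67 separate the mice with added miR-126 from the knockout. The macrophage, class II and interferon lists separate them by smaller gaps. Their highest mice with added miR-126 are at 7.34, 6.40 and 6.38, and their lowest knockout mice at 7.42, 6.55 and 6.61. The neutrophil, primary granule, cell cycle and stem cell lists overlap.

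Stem and progenitor genes moved both ways. Of 30 measured members 2 rose and 6 fell, beside 1.14% and 2.24% of all genes, and the list median was 0.04. Myb, the transcription factor that holds progenitors undifferentiated, read 12.11, 11.99 and 10.55 with added miR-126, against 9.37, 9.0 and 10.07 in the knockout (2.07 ± 0.41, adjusted p 0.0027), and a second probe set rose by 0.82. Meis1, a homeobox partner of the HOXA proteins, rose by 0.97, but passed in 1 of the 6 fits without 1 mouse (without replicate 2 of the added group) and was at 0.56 without replicate 3 of the added group. Myb did not pass without the narrow arrays (1.37). The falls were Gata2 and Kit, given above with the mast cell genes, the transcription factors Bcl11a (-2.08), Ikzf2 (-2.0) and Pbx3 (-1.29), and Slamf1 (-1.20), a surface receptor of stem cells. A second probe set of Bcl11a differed by 0.06, so that fall rests on 1 probe set. The stem cell genes Hoxa9, Hlf, Procr and Mecom differed by 0.00 to 0.39 and did not pass, and Cd34 read 7.24, 9.21 and 8.46 with added miR-126 and 9.13, 9.06 and 9.35 in the knockout. Ikzf2 did not pass without replicate 1 or 2 of the added group or knockout replicate 1 or 3, Slamf1 without knockout replicate 1 (-0.83) or 3, and Pbx3 without knockout replicate 1. The falls numbered 0 without the narrow arrays or with the 6 arrays alone, and 3 without knockout replicate 1 or without knockout replicate 3.

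Few genes tied to the fusion or to miR-126 itself passed. Of all genes 3.37% passed, and at that share lists this short would hold few calls. Of 22 measured genes reported elsewhere as targets of miR-126, 0 passed, 4 had groups that did not overlap (17.3% of all genes did), and the median was -0.17. Spred1, an inhibitor of ERK signalling, read 7.73, 8.74 and 7.10 with added miR-126 and 9.14, 8.29 and 9.15 in the knockout, a difference of -1.0 ± 0.37 with an adjusted p of 0.139. Leaving out replicate 2 of the added group brought it past the threshold, as did leaving out the narrow arrays, where 2 of the 22 genes were lower. Without knockout replicate 3, 3 of the 22 were lower, Mertk among them (-2.72). Mertk, a receptor for dying cells that macrophages also carry, differed by -2.0 (adjusted p 0.0752), Fzd7, a Wnt receptor, by -0.58 and Errfi1, a feedback inhibitor of EGF receptors that was reported as a target in leukaemia, by 0.36. These 22 genes are thus reported with their values and without a call.

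Of 6 runt and ETO family genes 0 passed, although Runx1 and Cbfa2t3, an ETO family corepressor at -1.05 (adjusted p 0.0617), were both lower and passed after cyclic loess, quantile normalization or scaling, and 1 of the 6 passed in 4 other alternatives. Runx1t1, the mouse counterpart of the ETO part, was at 6.60 ± 0.14 with added miR-126, 6.42 ± 0.52 in the knockout and 5.90 ± 0.37 in AE9a (SD, n = 3 each). Runx1 differed by -0.72 (adjusted p 0.103). Of 14 genes listed as markers of t(8;21) leukaemia, Ubash3b, a phosphatase that restrains receptor tyrosine kinase signals, fell: it read 5.12, 5.42 and 5.32 with added miR-126 and 7.30, 6.69 and 6.72 in the knockout (-1.62 ± 0.26, adjusted p 0.000316). Cebpa, the myeloid transcription factor that AML1-ETO represses, differed by 0.18, and Myc by 0.06, and neither passed.

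Type I interferon response genes had 5 falls and 1 rise among 31 members, with a median of -0.55. Over all genes 2.24% fell and 1.14% rose. Oasl1, an oligoadenylate synthase-like protein, read 5.90, 6.38 and 6.19 with added miR-126 and 10.92, 9.09 and 7.78 in the knockout (-3.11 ± 0.58, adjusted p 0.00146), and the DNA sensor Ifi204 read 3.77, 4.72 and 4.86 with added miR-126 and 9.11, 6.51 and 6.08 in the knockout. Knockout replicate 1 was the highest mouse for both genes. Ifit1, Ifih1 and Isg15 fell by 2.53, 2.10 and 1.05, while Irf9, a subunit of the factor that drives these genes, rose by 0.84 and did not pass in 8 of 17 alternatives, including those without replicate 2 or 3 of either group. Without knockout replicate 1 Ifit1, Ifih1 and Isg15 differed by -1.48, -1.24 and -0.66 and did not pass, and all 3 likewise lost their call without replicate 2 of the added group, Ifit1 also without its replicate 1 or 3. Without knockout replicate 1 the falls numbered 2, without replicate 2 of the added group 2, without the narrow arrays 3, and with the 6 arrays alone 0. The mean over the list was 6.11, 6.38 and 6.38 with added miR-126 and 7.68, 6.61 and 6.66 in the knockout. Of 14 interferon gamma induced GTPases, Gbp8 fell by 1.75 and did not pass without replicate 1 or 2 of the added group or knockout replicate 1 (-1.07).

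Of 38 cell cycle genes, Ccnd2, a D-type cyclin that carries growth signals into the cycle, fell: it read 6.77, 8.96 and 6.81 with added miR-126 and 10.38, 9.47 and 10.45 in the knockout (-2.59 ± 0.53, adjusted p 0.00359). Over all genes 2.24% fell, so this 1 call is not read as a trait of the list. The list median was -0.44, and it was 0.34 without the narrow arrays, so no direction is given for the cycle as a whole. The mean over the list was 7.0, 7.57 and 8.44 with added miR-126 and 7.95, 8.31 and 8.34 in the knockout, with the lowest value on the array of narrowest spread. Leaving out replicate 3 of the added group raised the number of falls to 8. With array weights 18 members fell and 1 rose, and Ccnd2 did not pass. Among 28 subunits of the respiratory chain 0 passed with a median of -0.41, and among 29 MYC and ribosome genes 0 passed with a median of -0.12.

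The remaining lists held few calls, beside the 3.37% of all genes that passed, and their counts are not read as a trait of the lists. The NF-kappaB feedback gene Tnfaip3, which encodes a ubiquitin editing enzyme, fell by 1.32 and was the 1 call among 30 immediate early and feedback genes. Among 26 chemokine and interleukin 1 genes the receptor chain Il1rap rose by 1.34, with 2 other probe sets at -0.14 and 0.14, and Il1r1 and Il6 fell by 1.52 and 2.27. Of 20 p53 targets Perp and Sesn2 rose by 2.43 and 1.46 and Phlda3 fell by 1.07. Of 21 Wnt genes the inhibitor Notum rose by 0.72, with a second probe set at 0.06. The transcription factor Tcf7l2 read 5.77, 5.55 and 5.57 with added miR-126 and 9.65, 7.5 and 6.17 in the knockout, a fall of 2.14. Of 15 megakaryocyte genes Rab27b, which moves granules to the membrane, and Gp5, a platelet receptor subunit, fell by 2.15 and 1.5, and of 24 T and NK cell genes the adaptor Lat, which mast cells also use, fell by 1.87. In 21 stroma and endothelium genes, 18 ERK feedback regulators, 10 housekeeping genes and 4 sex-linked genes 0 passed, with medians of 0.13, 0.05, -0.14 and -0.18. Most of the single calls above rest on single mice. Of the genes named, Perp, Il1rap, Rab27b and Lat passed in each of the 6 fits without 1 mouse. Without knockout replicate 1 Il6, Il1r1, Phlda3, Tcf7l2 and Tnfaip3 differed by -1.18, -1.16, -0.64, -1.20 and -1.18 and did not pass, and without replicate 2 of the added group the same 5 did not pass. Phlda3 also lost its call without replicate 1 or 3 of the added group or knockout replicate 3, Il6 without replicate 1 of the added group, and Tnfaip3 without that mouse or knockout replicate 3. Sesn2 did not pass without replicate 2 or 3 of either group (0.84 without replicate 3 of the added group), and neither Sesn2 nor Il6 passed with the replicate number as a block. Gp5 did not pass without any 1 mouse of the added group or knockout replicate 3 (-0.81), and Notum not without replicate 1 of the added group or knockout replicate 3.

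AE9a leukaemias of the same passage place these differences gene by gene. Both comparisons with AE9a share its 3 arrays, so they are given side by side and not correlated, and AE9a replicates 2 and 3 carried signal of Y-linked genes (Eif2s3y at 6.27 and 8.00, against 3.93 in replicate 1), while Eif2s3y read 3.36 to 4.02 on the 6 arrays of the main comparison. The class II gene H2-Ab1 was 4.12 lower than AE9a with added miR-126 (adjusted p 0.000315) and 0.30 higher in the knockout (0.861). Clec4a1 was 4.70 lower with added miR-126 and differed by -0.02 in the knockout. For mast cell genes the knockout departed: Tpsab1 was 0.45 lower than AE9a with added miR-126 (0.505) and 3.23 higher in the knockout (0.000122), and on this list 1 member was lower than AE9a with added miR-126 (5.68% of all genes were) and 5 were higher in the knockout (1.18%). Neutrophil genes likewise stood near AE9a with added miR-126, with 0 members higher (3.18% of all genes were), 1 lower and a median of -0.21, and 11 of 32 were lower than AE9a in the knockout (2.82% of all genes were) with a median of -1.68. Macrophage genes were lower than AE9a in both, 16 of 37 with added miR-126 and 7 of 37 in knockout mice. Over all genes, 8.85% passed against AE9a in the added group, while 3.99% did so in knockout mice.

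The same arms were compared at the other passages with arrays that passage 2 does not share. With added miR-126 all 3 arrays of passage 3 and 2 of the 3 of passage 4 were narrow (an SD of 1.43 to 1.71), and 0 of the knockout arrays of these passages were. The 4 sex-linked genes measured had median differences of -3.97 at passage 3 and -3.92 at passage 4, beside -0.18 at passage 2. The part of either in the counts below was not tested. At passage 1 the added group had 33 genes higher than the knockout (0.149%) and 96 lower (0.433%), 0.582% of all genes together, and 34 of these falls were also falls at passage 2, which is 35.4% of the passage 1 falls and 6.85% of the passage 2 falls. Of the rises, 3 were shared. At passage 3, where 57.7% of all genes passed (32.4% higher and 25.4% lower), 159 rises and 346 falls were shared, and 24 genes had the opposite direction. At passage 4, where 13.3% passed (5.05% higher and 8.3% lower), 79 rises (31.3% of those of passage 2 and 7.05% of those of passage 4) and 273 falls (55.0% and 14.8%) were shared, and 14 genes that rose at passage 2 fell.

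Car1 differed between the arms by -4.51, -4.88, -5.24 and -5.46 from passage 1 to passage 4. For Tph1 the differences in the same order were -4.71, -5.29, -1.72 and -0.94. Fbp1 was higher with added miR-126 by 2.33, 2.94, 2.58 and 2.66. These series share no arrays between passages, and whether mice of successive passages descend from one another is not stated.

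**Figure D5:**
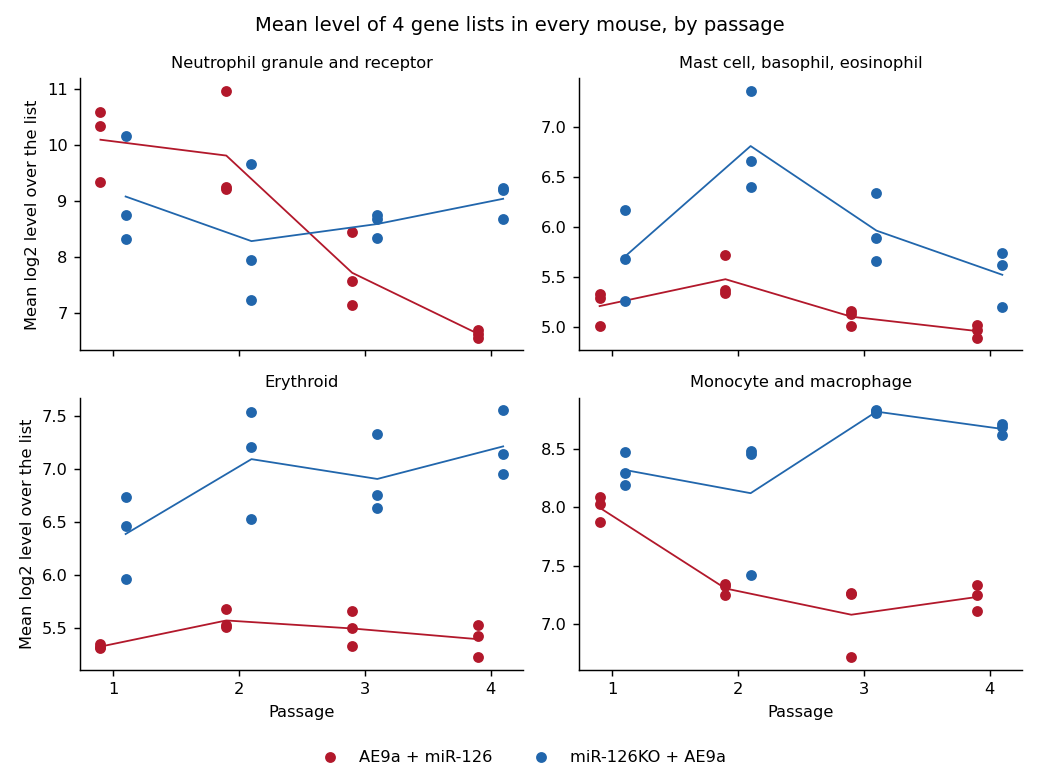
Mean log2 level over the members of 4 gene lists in every mouse, by passage, with AE9a + miR-126 drawn left of miR-126KO + AE9a and lines through the group means. The neutrophil list was higher with added miR-126 on average at passages 1 and 2 and lower at passages 3 and 4, and the mean of the mast cell list in the knockout was highest at passage 2.

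The passage 2 difference was tested against the others as a difference of differences. Against passage 1, 6 genes passed (0.0271%), 2 higher (0.00902%) and 4 lower (0.018%), and 1 to 41 genes passed with an array left out. Cyth3, which encodes an exchange factor for ARF proteins, read 5.47, 5.25 and 6.02 with added miR-126 and 9.21, 8.02 and 8.84 in the knockout at passage 2, a difference of -3.11 ± 0.28 (adjusted p 5.4e-08), against -0.43 at passage 1. The passage 2 difference was 2.69 below that of passage 1, with an adjusted p of 0.00277. Tnfaip3 (-1.32 at passage 2 and 1.36 at passage 1), the exchange factor Arhgef12 (-2.14 and 0.55) and the transcription factor Creb3l1 (-1.94 and 0.07) were also lower at passage 2. The interferon genes Mx1 (-0.11 and -2.94) and Ifi44l (0.04 and -1.27) passed at passage 1 and did not pass at passage 2.

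Against the mean of passages 1, 3 and 4, 253 genes passed (1.14%), 189 higher (0.852%) and 64 lower (0.289%). Neutrophil genes supplied 13 of the 189, which is 13 of 32 on their list, with a median of 2.22 beside -0.03 over all genes. Against passage 1 alone 0 of the 32 passed in either direction, with a median of 0.53. The list mean with added miR-126 was 10.09, 9.81, 7.72 and 6.64 from passage 1 to passage 4. Retnlg differed between the arms by 1.21, 2.79, 0.87 and -5.88 from passage 1 to passage 4, and Olr1 by 1.16, 3.08, -3.15 and -2.78. For both the sign at passage 2 was that of passage 1 and not that of passage 4. Of type I interferon genes 7 of 31 were also higher, with a median of 1.14, and the list's median difference between the arms was -1.67, -0.55, -2.12 and -0.96 from passage 1 to passage 4. On the low side stood the tryptases Tpsab1 and Tpsb2, which differed by -3.68 and -3.52 at passage 2 and by -0.11 and -0.58 at passage 4. The count of 253 was 21 without knockout replicate 3, 55 without replicate 3 of the added group, 428 without its replicate 1 and 775 without knockout replicate 1, so the size of this set turns on single mice.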

How the data were processed

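The series holds 39 Affymetrix mouse gene arrays. Each leukaemia array was hybridised with RNA of the sorted donor cells of 1 recipient mouse. A further group of 3 arrays, titled NC and without a passage, is 1 of the 13 groups of the fit. What the authors deposited are RMA values on the log2 scale (27037 probe sets, Partek 6.0 per the submitters' processing notes), and the sources used here name no filter or batch step of theirs. GEO's platform table names 1 gene for 23521 probe sets, leaves 1702 unnamed and pairs 1814 with several genes, which were not used by name. Genes with more than 1 probe set (1082) kept the one with the highest mean. All arrays entered 1 limma 3.58.1 fit (R 4.3.3) with 13 group means and 26 residual degrees of freedom, and Benjamini-Hochberg adjustment ran over 22180 genes. A ± after a difference is its standard error, with a median of 0.222 over genes. The number of arrays limits the precision.

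The members and the 28 gene lists (551 of 609 symbols measured, 1 by an older symbol) were chosen with earlier results of these data known. Named genes are the 12 largest rises and 12 largest falls without overlap between groups, up to 5 members of each list by adjusted p, the 4 largest of each direction in the differences of differences, and Egfl7, Runx1, Runx1t1, Errfi1, Spred1, Fzd7, Cebpa and Myc. Other list members are named because they passed (19) or, where they did not pass, to show a list's spread, and were chosen after their values were seen. Alternatives were the compared arrays alone, a replicate block, other variance priors, filters, normalizations and probe sets, array weights, the spread as a covariate or a filter, a fold minimum, and each array left out. Tested on simulated data of 22180 genes, the passage 2 comparison found 11 of 50 genes with a 1.5-fold change, 32 with 2-fold, 47 with 4-fold and 50 with 8-fold, and called 4 unchanged genes. Whether these rates hold for the deposited arrays, whose spread differed from array to array, was not tested. Promoter and miRNA sequences are RefSeq's for GRCm38.p6.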

Additional observations from a re-analysis of the deposited data

Results flagged for a closer look

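The results below were picked out because the difference between the arms at passage 2 was unlike that at other passages in a limma test of the difference of differences (adjusted p under 0.05). Each value is the passage 2 difference (added miR-126 minus knockout) less the difference elsewhere, on the log2 scale.

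Against passage 1 the difference of differences was -2.69 for Tnfaip3, 2.83 for Mx1, 1.31 for Ifi44l, -2.70 for Arhgef12, -2.69 for Cyth3 and -2.01 for Creb3l1. Mx1 and Ifi44l, both interferon-induced, differed between the arms at passage 1 by -2.94 and -1.27 and at passage 2 by -0.11 and 0.04. Creb3l1 read 5.46, 5.18 and 5.86 with added miR-126 and 6.71, 7.32 and 8.30 in the knockout at passage 2.

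Against the mean of passages 1, 3 and 4, these genes stood higher at passage 2: Olr1 by 4.67, Retnlg by 4.06, Slc7a11 by 3.95, Acod1 by 3.8, Thbs1 by 3.69, Il1f9 by 3.50 and Anxa1 by 1.93. Of these Slc7a11, a cystine transporter, Acod1, which makes itaconate, and Thbs1, thrombospondin, did not pass in the passage 2 difference itself (adjusted p 0.0789, 0.163 and 0.162). Slc7a11 read 7.80, 9.03 and 11.38 with added miR-126 and 7.55, 7.65 and 5.4 in the knockout, and its second probe set differed by 0.44. Id1 stood higher by 2.16, Mx1 by 1.81, Fcgr3 by 1.52, Irf9 by 1.43, Meis1 by 1.34 and Il1rap by 1.24.

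Kdm5d, a Y-linked demethylase gene, stood higher by 2.97, with differences between the arms of 0.24 at passage 2, -3.99 at passage 3 and -3.75 at passage 4.

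Lower at passage 2 than elsewhere stood the tryptases Tpsab1 (-2.46) and Tpsb2 (-2.42), Cxcl13 (-3.01), Muc13 (-2.90), Cd34 (-2.90), Tespa1 (-2.57), Creb3l1 (-1.84), Arhgef12 (-1.66) and Rab27b (-1.52). Cxcl13, a B cell attracting chemokine, read 5.6, 5.28 and 5.32 with added miR-126 and 10.69, 7.88 and 5.75 in the knockout, so its fall rests on 2 knockout mice. Cd34, a progenitor surface protein, and Muc13, a mucin, were higher with added miR-126 at passages 1, 3 and 4 (by 1.62, 1.48 and 2.98 for Cd34, and by 1.44, 2.74 and 3.39 for Muc13) and differed by -0.88 and -0.38 at passage 2 without passing.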

How the results depend on the processing

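The 748 calls between the arms at passage 2 became 37 with the 6 arrays alone (4 residual degrees of freedom), 1149 with arrays scaled to one median and SD, 1228 after quantile normalization, 1334 after cyclic loess, 1618 with the array SD as a covariate and 4604 with array weights, which ran from 0.225 to 3.42 within these 6 arrays. Rises made up 33.7% of the calls, against 43.7% after cyclic loess, 43.9% after quantile normalization, 44.9% with the covariate, 48.8% with weights and 58.5% without the 8 narrow arrays of the series (752 calls), where 251 genes were shared and 0 had the opposite direction. Leaving out 1 array at a time gave 415 to 1284 calls, lowest without replicate 1 of the added group and highest without its replicate 3. The 6 calls against passage 1 became 0 alone, 12 over all probe sets, 2968 with weights, 17 after cyclic loess, 19 after quantile normalization, 12 after scaling, 16 with the covariate, 16 without the narrow arrays and 1 to 41 with an array left out. The 253 calls against the other passages became 16 alone, 3142 with weights, 413 after quantile normalization and 21 to 775 with an array left out; rises were 74.7% of them, 59.1% after cyclic loess and 59.4% with the covariate, and no value could be had without the narrow arrays. The Mir126a and Egfl7 probe set kept its difference of 6.64 alone (adjusted p 0.0527) and gave 5.62 to 7.41 with an array left out. Of 70 named genes that passed, 15 passed alone and 39 without the narrow arrays, and 0 of the named genes reversed a call. Of the 19 other list members named because they passed, 18 lost their call with the 6 arrays alone. The causes were not tested. With the replicate number as a block, 684 genes passed. The deviations of same-numbered mice had correlations of -0.33, -0.13 and -0.32, and those of mice of unlike number ran from -0.03 to 0.32. With so few pairs this cannot decide whether the numbers pair the mice.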
